A study of Mus musculus with 11 samples.

Results

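The genes described here encode the machinery that cuts and rejoins antigen receptor genes, and they were compared between Notch1-driven mouse T cell leukaemias without and with Utx. They were taken by symbol: 10 of the 37224 gene rows in the deposited table, namely Rag1, Rag2, Dntt, Xrcc5, Xrcc6, Prkdc, Dclre1c, Xrcc4, Lig4 and Nhej1. Utx, listed in the table as Kdm6a, is an X-linked demethylase of histone H3 lysine 27. The knockout group held 5 samples from Utx-/Y donors, of which 2 were from bone marrow and 3 from spleen. The wild-type group held 6 samples from donors that were Utx+/+ or Utx+/Y, of which 2 were from bone marrow and 4 from spleen. Without repeat runs each group had 4 samples. The repeat runs include a bone marrow sample in each group. All were on the C57/BL6 background. In every sample, cKit-positive blood progenitors had been given an intracellular form of Notch1 (Notch1-IC) by retrovirus and transplanted into mice, so the wild-type tumours are also Notch1-IC leukaemias and not normal T cells. The series' design text speaks of sorted populations of tumour cells. The knockout samples came from male donors, while the wild-type samples could be of either sex.

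V(D)J recombination builds T cell and B cell receptor genes from separate segments. The RAG1 and RAG2 proteins together cut the DNA beside the segments, and the broken ends are rejoined by nonhomologous end joining, the same repair pathway that most cells use for double-strand breaks. The Ku heterodimer, made of the products of Xrcc6 (KU70) and Xrcc5 (KU80), binds the ends; the kinase encoded by Prkdc (DNA-PKcs) and the nuclease Artemis, encoded by Dclre1c, open the sealed hairpins; the terminal transferase TdT, encoded by Dntt, adds bases without a template; and XRCC4, DNA ligase IV (Lig4) and XLF (Nhej1) seal the join. In the thymus, Rag1, Rag2 and Dntt are switched on in immature T cells, while the end joining genes are active in most tissues.

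The files gave 1 pooled count per gene and genotype, 106445530 counts from knockout and 108015222 from wild-type tumours. No spread between tumours can be had from pooled counts, and with 1 pool per genotype no test of the genotype is possible. Intervals are exact 95% Clopper-Pearson intervals of the knockout share of a gene's counts, turned into log2 ratios of depth-scaled counts, knockout over wild-type; the ratio itself has 0.5 counts added to each pool. The intervals cover counting error only. CPM are counts per 1000000 counts of a pool. A gene is called higher or lower if the pools together held 100 counts or more, the ratio reached 2-fold and the interval left out 0. The targeted gene Kdm6a had 1115 counts in knockout tumours and 6299 in wild-type tumours, which gave a log2 ratio of -2.48 (-2.57 to -2.38).

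The upstream regions of 4 members are shown because they set the members with the largest ratios side by side: Rag1, Rag2 and Dntt, which stood higher in knockout tumours, and Xrcc6, which stood lower. Each run is the 250 bases before the RefSeq start of transcription (build GRCm38.p6), written 5′ to 3′ on the strand of the gene, with every CG dinucleotide in capitals. They lie at chr2:101649533-101649782 (minus strand, Rag1), chr2:101624462-101624711 (plus strand, Rag2), chr19:41029025-41029274 (plus strand, Dntt) and chr15:82016119-82016368 (plus strand, Xrcc6).
Rag1: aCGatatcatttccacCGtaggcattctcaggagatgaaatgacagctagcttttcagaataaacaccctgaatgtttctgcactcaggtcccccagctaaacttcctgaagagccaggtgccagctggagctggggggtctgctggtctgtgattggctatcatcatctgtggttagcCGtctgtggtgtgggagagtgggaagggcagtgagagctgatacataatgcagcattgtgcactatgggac
Rag2: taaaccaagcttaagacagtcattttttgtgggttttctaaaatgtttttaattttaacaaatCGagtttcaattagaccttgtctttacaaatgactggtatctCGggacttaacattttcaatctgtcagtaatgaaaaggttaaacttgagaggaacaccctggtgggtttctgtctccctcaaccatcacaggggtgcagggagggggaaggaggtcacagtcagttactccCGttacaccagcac
Dntt: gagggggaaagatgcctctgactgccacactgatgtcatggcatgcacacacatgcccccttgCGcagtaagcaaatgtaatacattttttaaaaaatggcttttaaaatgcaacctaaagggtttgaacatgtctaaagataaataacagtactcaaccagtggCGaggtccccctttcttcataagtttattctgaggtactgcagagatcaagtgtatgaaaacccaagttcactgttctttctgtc
Xrcc6: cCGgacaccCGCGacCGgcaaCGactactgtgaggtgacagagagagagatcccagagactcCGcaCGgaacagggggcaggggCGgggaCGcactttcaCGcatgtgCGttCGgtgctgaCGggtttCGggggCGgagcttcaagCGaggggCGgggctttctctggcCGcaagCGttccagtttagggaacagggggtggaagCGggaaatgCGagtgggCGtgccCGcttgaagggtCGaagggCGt

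CG dinucleotides numbered 3 in the Rag1 window, 3 in that of Rag2 and 2 in that of Dntt, against 25 in that of Xrcc6. Over the 32851 start sites in the table the median was 6. As few as 3 were found in 37.8% of all windows and as few as 2 in 29.0%, while 89.3% had fewer than Xrcc6. RefSeq windows were matched for 9 of the 10 genes; Prkdc was not matched. Among the other end joining genes the count was 5 for Xrcc5, 8 for Dclre1c, 9 for Nhej1, 26 for Xrcc4, and 27 and 28 for the 2 start sites of Lig4. So each of the end joining windows held more CG dinucleotides than the 3 windows of Rag1, Rag2 and Dntt, with a wide spread among them.

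Short motifs were searched on either strand of the same windows. The E-box CANNTG, the core bound by E proteins such as E2A and HEB, occurred 3 times in the Rag1 window, once in that of Rag2 and 3 times in that of Dntt. The end joining windows held it too, 2 times in those of Xrcc5 and Dclre1c and once in those of Xrcc6, Nhej1 and each start of Lig4, but not in that of Xrcc4; 66.2% of all windows held it. The Runx core TGTGGT occurred 2 times in the Rag1 window and in no other member's window, against 14.0% of all windows. The Rag1 E-box 85 to 80 bases before the start overlapped the Runx core at 81 to 76. A CCAAT box stood 97 to 93 bases before the Rag1 start, and 33.8% of all windows held that motif, those of Xrcc5 and Dclre1c among them. The GATA core GATAA was found in the windows of Dntt and Nhej1, against 22.6% of all, and TATAAA in none of the members' windows, against 12.4% of all. These matches describe the letters only.

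Both recombinase genes were higher in knockout tumours. Rag1 (ENSMUSG00000061311; chromosome 2, 101638282 to 101649501 on the minus strand, GRCm38 coordinates of GENCODE M21), which encodes the subunit with the cutting site, had 18097 counts in knockout tumours and 6073 in wild-type tumours, or 170 against 56.2 CPM. Its log2 ratio was 1.60 (1.55 to 1.64), a 3.02-fold higher level. Rag2 (ENSMUSG00000032864; chromosome 2, 101624718 to 101632529 on the plus strand), the partner subunit whose plant homeodomain finger reads trimethylated lysine 4 of histone H3, had 767 counts in knockout tumours and 365 in wild-type tumours, or 7.21 against 3.38 CPM. Its log2 ratio was 1.09 (0.91 to 1.28), a 2.13-fold higher level, and the lower end of that interval lay under the 2-fold line. Among all 13833 genes with at least 100 counts 5.84% had a larger ratio than Rag1 and 10.1% a larger one than Rag2.

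Dntt stood higher by less. The TdT gene (ENSMUSG00000025014; chromosome 19, 41029275 to 41059525, plus strand) had 5543 counts in knockout tumours and 3968 in wild-type tumours, or 52.1 against 36.7 CPM. Its log2 ratio was 0.50 (0.44 to 0.56), under the 2-fold minimum. Of the 10 members 2 were called higher and none lower. Over all 13833 genes 11.2% were called higher and 5.36% lower, so that a share of 2 in 10 lies not far above the background. The median log2 ratio of Rag1, Rag2 and Dntt was 1.09, against -0.07 over all genes.

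**Figure D1:**
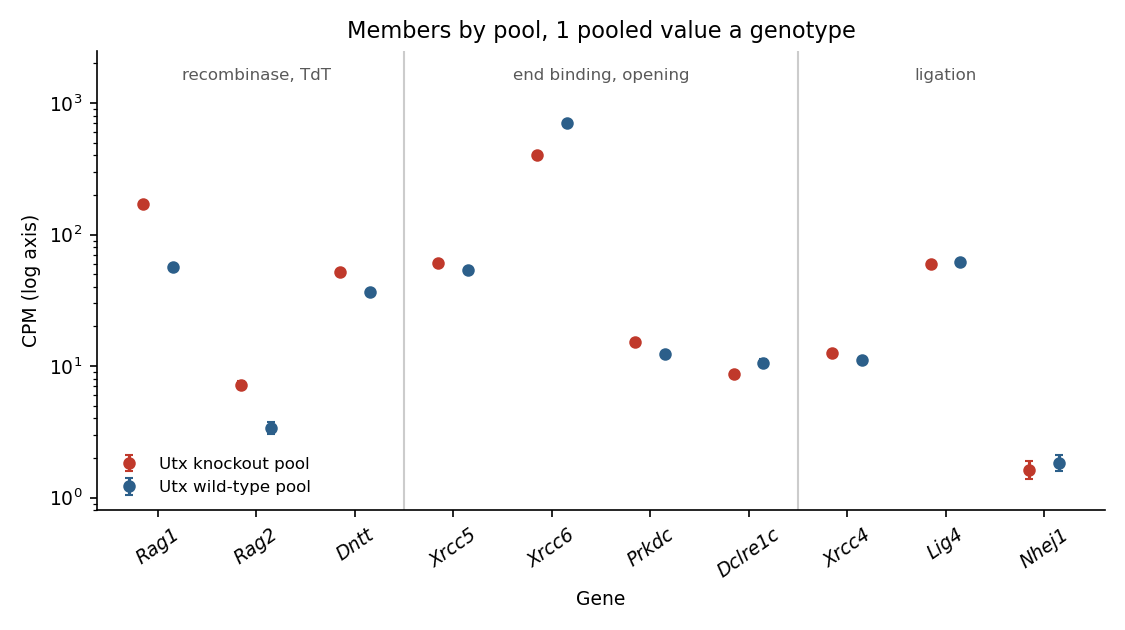
Level of each member in CPM (log axis) in the Utx knockout pool (red) and the Utx wild-type pool (blue), with exact 95% Poisson intervals that cover counting error only; each point is 1 pool. Rag1 lies at 170 against 56.2 CPM and Xrcc6 at 406 against 708, while most end joining genes lie close together in the pools.

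Of the 7 end joining genes none was called in either direction, and their median log2 ratio was -0.04, which turned positive under 4 of 5 other scalings. The genes of end binding and opening were split. Xrcc6 (ENSMUSG00000022471; chromosome 15, 81987835 to 82040085, plus strand) had 43180 counts in knockout tumours and 76460 in wild-type tumours, or 406 against 708 CPM. Its log2 ratio of -0.80 (-0.82 to -0.79) put it at 57.3% of the wild-type level, and 8.35% of all genes had a lower ratio. Xrcc6 starts further upstream in GENCODE M21 than in RefSeq, so the printed window lies inside these coordinates. Its heterodimer partner Xrcc5 (ENSMUSG00000026187; chromosome 1, 72307421 to 72394952, plus strand) had 6451 against 5842 counts, which gave a log2 ratio of 0.16 (0.11 to 0.22). The partners of the Ku heterodimer thus had ratios of opposite sign.

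The kinase and the nuclease that open hairpins moved little and apart. Prkdc (ENSMUSG00000022672; chromosome 16, 15637866 to 15842235, plus strand) had 1630 counts in knockout tumours and 1337 in wild-type tumours, which gave a log2 ratio of 0.31 (0.20 to 0.41). Dclre1c (ENSMUSG00000026648; chromosome 2, 3424131 to 3464130, plus strand) had 923 against 1147 counts, which gave a log2 ratio of -0.29 (-0.42 to -0.17). Neither reached 2-fold.

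Of the ligation genes, Lig4 (ENSMUSG00000049717; chromosome 8, 9969049 to 9977686, minus strand) had 6363 counts in knockout tumours and 6649 in wild-type tumours, which gave a log2 ratio of -0.04 (-0.09 to 0.01). Xrcc4 (ENSMUSG00000021615; chromosome 13, 89774027 to 90089608, minus strand), which holds the ligase in place, had 1346 against 1201 counts, which gave a log2 ratio of 0.19 (0.07 to 0.30). Nhej1 (ENSMUSG00000026162; chromosome 1, 74967139 to 75125200, minus strand) had the fewest counts of the members with 173 against 197, and its log2 ratio of -0.17 (-0.47 to 0.14) is too imprecise at this depth to give a direction. The sign of Lig4 turns under most other scalings, to at most 0.24. That of Nhej1 turns only when the median of T cell markers is set to 0, to 0.11.

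Counting intervals alone separate most genes at this depth. They excluded 0 for 8 of the 10 members, and for 83.7% of all genes with at least 100 counts. In the authors' deposited table the Benjamini-Hochberg q of the DEGseq test was 0.128 for Lig4 and 0.329 for Nhej1 and under 0.05 for the other 8 members; 67.8% of the genes given a q there were under 0.05. That test was run on these same pooled counts, and nothing in the table shows that it took differences between tumours into account.

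**Figure D2:**
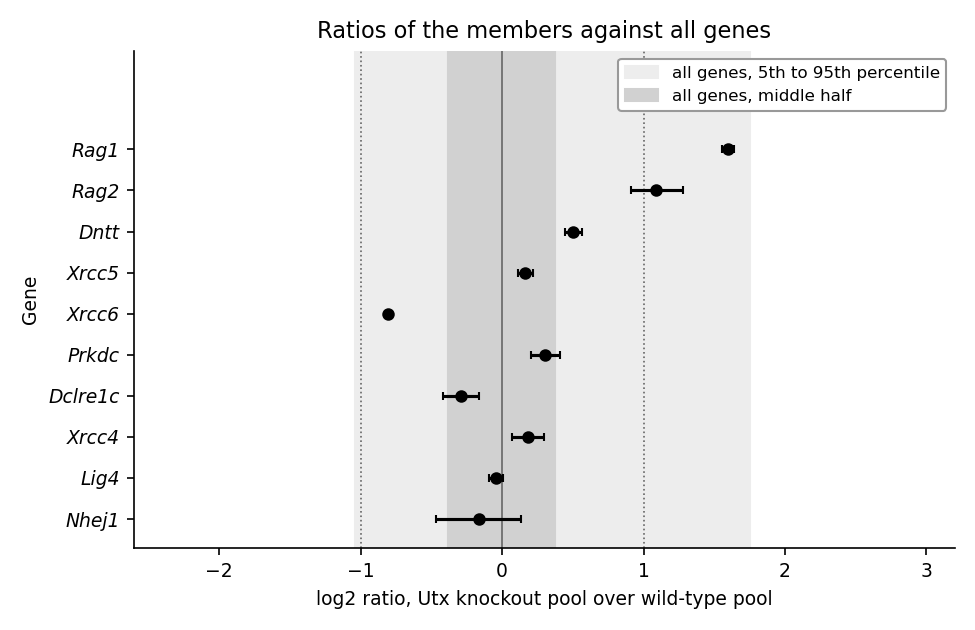
Log2 ratio of each member, knockout pool over wild-type pool, with exact 95% intervals for counting error; grey bands give the range of all 13833 genes (5th to 95th percentile, -1.04 to 1.76, and 25th to 75th percentile, -0.38 to 0.37), and dotted lines mark 2-fold. Rag1 and Rag2 lie to the right of the 2-fold line, Xrcc6 lies between the lower 2-fold line and 0, and the other end joining genes lie within the inner band.

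Levels of different genes were compared per kb of merged exon length in GENCODE M21. In the knockout pool Xrcc6 was highest at 90.6 CPM per kb, followed by Rag1 at 25.7, Xrcc5 at 23.7 and Dntt at 22.7. Rag1 was number 2 in that order in knockout tumours and number 5 in wild-type tumours. In the wild-type pool Xrcc6 stood at 158, Xrcc5 at 21.2, Dntt at 16.0, Lig4 at 11.8 and Rag1 at 8.51. The intervals of Xrcc5 and Dntt overlapped in knockout tumours, and all the other neighbours in its order were apart by more than counting error. The lower end held Xrcc4 (3.00 in knockout tumours, 2.64 in wild-type tumours), Rag2 (2.10 against 0.987), Nhej1 (1.45 against 1.63), Prkdc (1.16 against 0.939) and Dclre1c (0.931 against 1.14). In the wild-type pool the interval of Rag2 overlapped those of its neighbours Dclre1c and Prkdc. The merged length counts every annotated exon, so genes with long exons that these cells do not use appear too low.

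**Figure D3:**
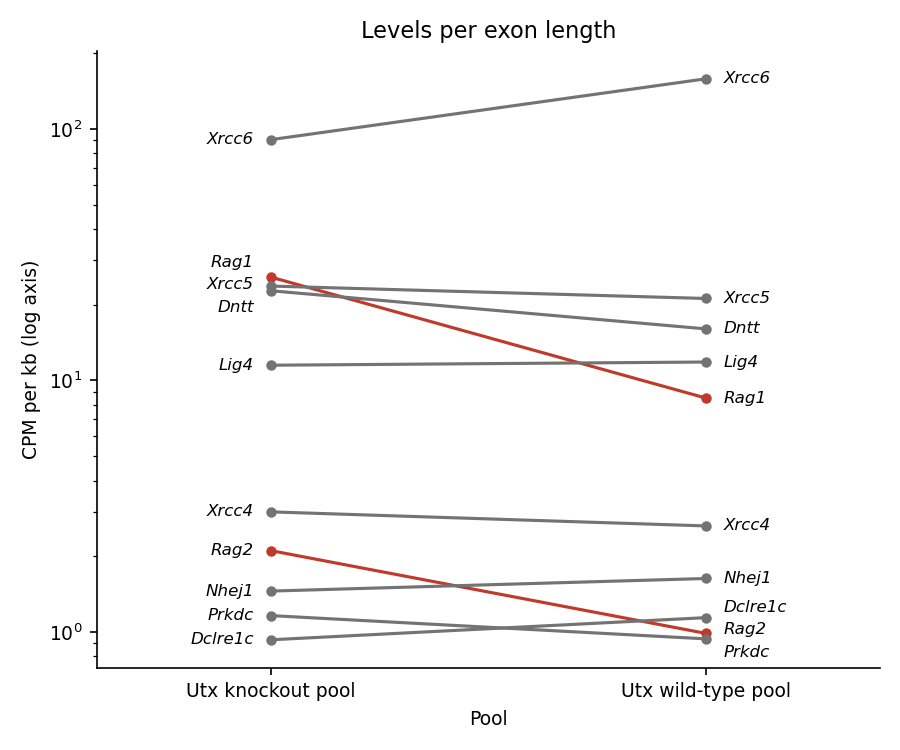
Level of each member in CPM per kb of merged exon (log axis) in the Utx knockout pool (left) and the Utx wild-type pool (right), 1 pooled value each, joined by a line; red lines are the genes called higher. Rag1 crosses Lig4, Dntt and Xrcc5 between the pools, at 25.7 against 8.51.

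Ratios of 2 genes within a pool need no scaling for depth. Per length, Rag1 exceeded Rag2 by 12.2 times in knockout tumours and by 8.62 times in wild-type tumours. That ratio differed between the pools by a log2 of 0.50 (0.32 to 0.69, 95% interval of the odds ratio by the normal approximation). So Rag1 stood further above Rag2 in knockout tumours by more than counting error. Per length, Rag1 stood at 1.13 times Dntt in knockout tumours and at 0.531 times in wild-type tumours, a log2 difference of 1.09 (1.02 to 1.17). The 2 genes of the Ku heterodimer came closer together: per length Xrcc6 exceeded Xrcc5 by 3.82 times in knockout tumours and by 7.47 times in wild-type tumours, a log2 difference of -0.97 (-1.02 to -0.91). Against Cd3e, a signalling chain of the T cell receptor that stood at 436 against 446 CPM, the log2 difference was 1.63 (1.58 to 1.68) for Rag1, 1.13 (0.95 to 1.31) for Rag2 and 0.54 (0.48 to 0.60) for Dntt. The other signalling chains stood lower in knockout tumours than Cd3e did, with log2 ratios of -0.34 for Cd3d, -0.28 for Cd3g and -0.42 for Cd247. These differences therefore hold for Cd3e only.

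The recombinase genes are neighbours that face each other, with 5752 bases between their ends, and another gene runs across them. Iftap (B230118H07Rik in the table, also known as NWC; chromosome 2, 101560781 to 101649532, minus strand), a gene named for a link to intraflagellar transport, overlaps each of them in the annotation. It had 1708 counts in knockout tumours and 899 in wild-type tumours, which gave a log2 ratio of 0.95 (0.83 to 1.07) that fell short of 2-fold. Of its 12 annotated transcripts 3 start within 50 bases of the RefSeq start of Rag1. Its exons share 80 bases with those of Rag1 on the same strand, which is 1.21% of the Rag1 exons. They share 208 bases with those of Rag2 on the opposite strand, which is 6.07% of the Rag2 exons. How reads in shared bases were counted, and on which strand, is not stated in the sources, and the part of such reads in the ratios was not tested.

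On the far side of Rag1 the ratios had the other sign. Traf6, an adaptor of innate immune receptor signalling whose start lies 28.9 kb from that of Rag1, had 8718 counts in knockout tumours and 15323 in wild-type tumours, which gave a log2 ratio of -0.79 (-0.83 to -0.75). Commd9, at 237 kb, had 1377 against 2696 counts, which gave a log2 ratio of -0.95 (-1.04 to -0.85). Ldlrad3, at 537 kb, stood at -0.39 (-0.57 to -0.22) on 476 against 635 counts. Prr5l, between Traf6 and Commd9, had 1 against 6 counts, too few for a ratio. So Rag1, Rag2 and Iftap, which overlaps each of them, were higher in knockout tumours, though only Rag1 and Rag2 passed 2-fold. The 3 measured genes beyond Rag1 were lower. Genes on the other side of the locus were not examined.

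**Figure D4:**
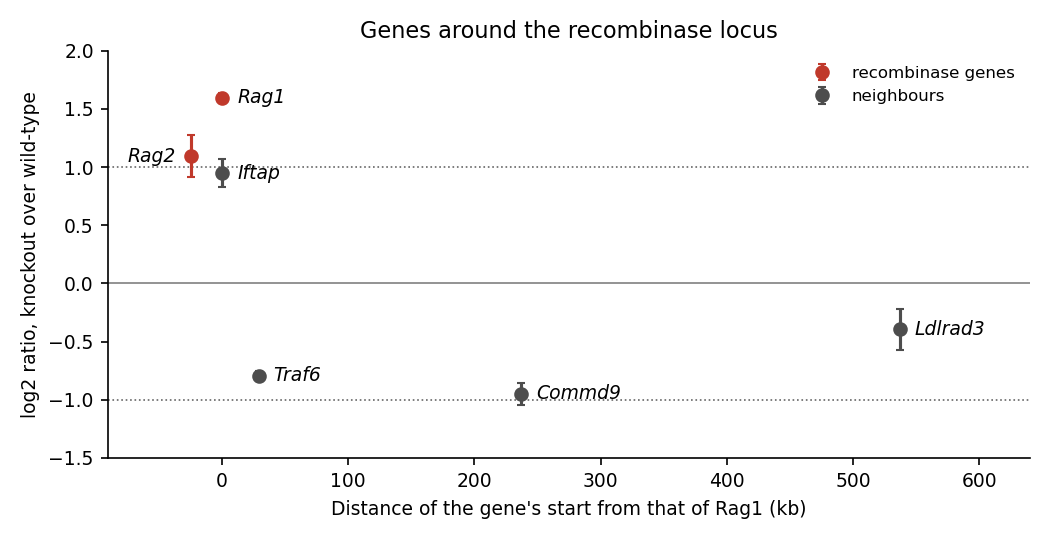
Log2 ratio, knockout pool over wild-type pool, of the genes around Rag1 and Rag2 against the distance of each gene's annotated start from that of Rag1 in kb; bars are exact 95% intervals for counting error and dotted lines mark 2-fold. Rag1, Rag2 and Iftap lie at 0.95 to 1.60, and Traf6, Commd9 and Ldlrad3, all on the Rag1 side, at -0.95 to -0.39.

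Other members share bases with genes on the opposite strand. Xrcc6 and Desi1 share 344 bases, 7.69% of the Xrcc6 exons, and Desi1 stood at a log2 ratio of -0.35. Dclre1c shares 357 bases with Suv39h2, which stood at -0.58, and Xrcc4 shares 112 bases with Tmem167, at -0.36. The share of such reads was not tested.

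Genes known to regulate the Rag genes were followed as a list of 20 transcription factors. Of these 1 was called higher and none lower, against a background of 16.6% called in either direction, and the median log2 ratio was 0.02. The called gene was Gata3, a T lineage factor, with 179 CPM in knockout tumours and 82.9 in wild-type tumours, a log2 ratio of 1.11 (1.07 to 1.15). Ikzf3, of the Ikaros family, followed at 0.98 (0.94 to 1.01). The E protein genes were at 0.51 for Tcf12 (HEB) and -0.27 for Tcf3 (E2A). Foxo1, a known activator of Rag transcription in B cell progenitors, was at -0.38 (-0.43 to -0.34), and Nfatc1 was lowest at -0.63 (-0.69 to -0.57).

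Accessory end joining genes, 11 in all, had a median of -0.22 with none called. Over all genes the median was -0.07, and 16.6% were called in either direction. The DNA polymerase gene Polm was at 0.28 (0.16 to 0.41). Hmgb2 and Hmgb1, DNA-bending proteins that help RAG bind its targets, were at -0.65 (-0.67 to -0.62) and -0.38 (-0.43 to -0.34); genes with processed copies, as these have, can share reads. Paxx, a further factor of the ligation step, was at -0.38 (-0.47 to -0.28). Of 13 break response genes none was called, against the same background, with a median of -0.17. Atm, the kinase that senses RAG breaks, had 1496 against 1230 counts, which gave a log2 ratio of 0.30 (0.19 to 0.41), Trp53bp1 was at 0.29 and Usp1, a deubiquitinase, was lowest at -0.72 (-0.74 to -0.69).

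Markers of cell types were set beside these values, because in bulk samples fewer cells of a type and less RNA per cell cannot be told apart. T cell markers were abundant, with a sum of 4258 CPM in knockout tumours and 4906 in wild-type tumours over 17 genes. Their median log2 ratio was -0.28, with 1 called higher (Gata3, also the called gene of the Rag regulator list) and 1 lower (Thy1, a surface marker, at -1.06). Over all genes 11.2% were called higher and 5.36% lower. The median of the T cell markers thus had the opposite sign to the ratios of Rag1, Rag2 and Dntt. B cell progenitors, the other cells known for Rag and Dntt, had few marker counts: 13 markers summed to 13.1 CPM in knockout tumours and 14.8 in wild-type tumours. Of their surrogate light chain genes Igll1 had 6 against 13 counts and Vpreb1 had 16 against 16, and Vpreb2 had 0 in each pool, where 3 counts (0.0282 CPM in knockout tumours and 0.0278 in wild-type tumours) would be the upper limit. Of 7 B progenitor markers with enough counts 1 was called, against 16.6% of all genes called in either direction. It was Pax5, which was lower at -2.04. Cd22 followed at -0.74 (-0.96 to -0.53), and Cd79b at 0.98 (0.65 to 1.32) and Blk at 0.87 (0.58 to 1.17) had the highest ratios of these 7.

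Thymocyte stage markers had a median of 0.60, with 5 of 15 called higher and none lower, against 11.2% of all genes called higher and 5.36% called lower; the same background applies to the marker counts that follow. The early marker Kit had 1139 against 404 counts (1.52, 1.35 to 1.68), and Il2ra, the CD25 receptor chain of the stage in which Rag genes first act, stood at 723 against 297 CPM (1.28, 1.26 to 1.30). Il7r (2.49), the chemokine receptor gene Ccr7 (2.64) and Cd38 (1.39) were the other 3. Ptcra, the pre-T cell receptor alpha chain, and Cd4 had the lowest ratios at -0.56 and -0.41. Progenitor markers had a median of 1.46, with 6 of 9 measured genes higher, among them Erg (3.19) and Cd93 (2.56). Kit is on both lists and is counted in each. Flt3, a receptor of early lymphoid progenitors, which also carry Dntt, was at -0.77 on 78 against 135 counts.

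Markers of other blood cells and of stroma were called in part. Granulocyte and monocyte markers summed to 2478 CPM in knockout tumours and 1909 in wild-type tumours. Their median was 1.46, with 10 of 17 called higher. The 10 were Marco (highest at 2.43), Csf1r, Lyz2, Itgam, Cd14, Adgre1, C1qa, C1qb, C1qc and the neutrophil gene Mpo (1.07). The other neutrophil genes were not called: S100a8 (0.29), S100a9 (0.49), Elane (0.47), Prtn3 (0.66), Ctsg (0.86), Ltf (0.61) and Ngp (lowest at -0.09). Erythroid markers summed to 25723 against 12888 CPM, with a median of 0.67 and 3 of 9 called higher, led by Alas2 at 1.33. Markers of megakaryocytes, NK cells, stroma and endothelium had a median of 1.88 and 7 of 11 called higher. The called genes were Pf4, Ppbp and Itga2b of megakaryocytes, Klrb1c, Prf1 and Gzmb of NK cells, and Cxcl12 of stroma, the highest at 2.92. The stromal gene Col1a1 (0.28) and the endothelial genes Pecam1 (0.22) and Cdh5 (0.67) were not called. None of these 3 lists had a called lower member and none of their matched markers was at 0. Their part in the ratios of the recombinase genes was not tested. Donor sex may also differ between the groups, since the labels leave it unknown for each wild-type sample, and its part cannot be told apart from genotype here. Bone marrow and spleen may weigh differently in the pools, since which samples and repeat runs entered each is not given. The part of tissue in these ratios was not tested.

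**Figure D5:**
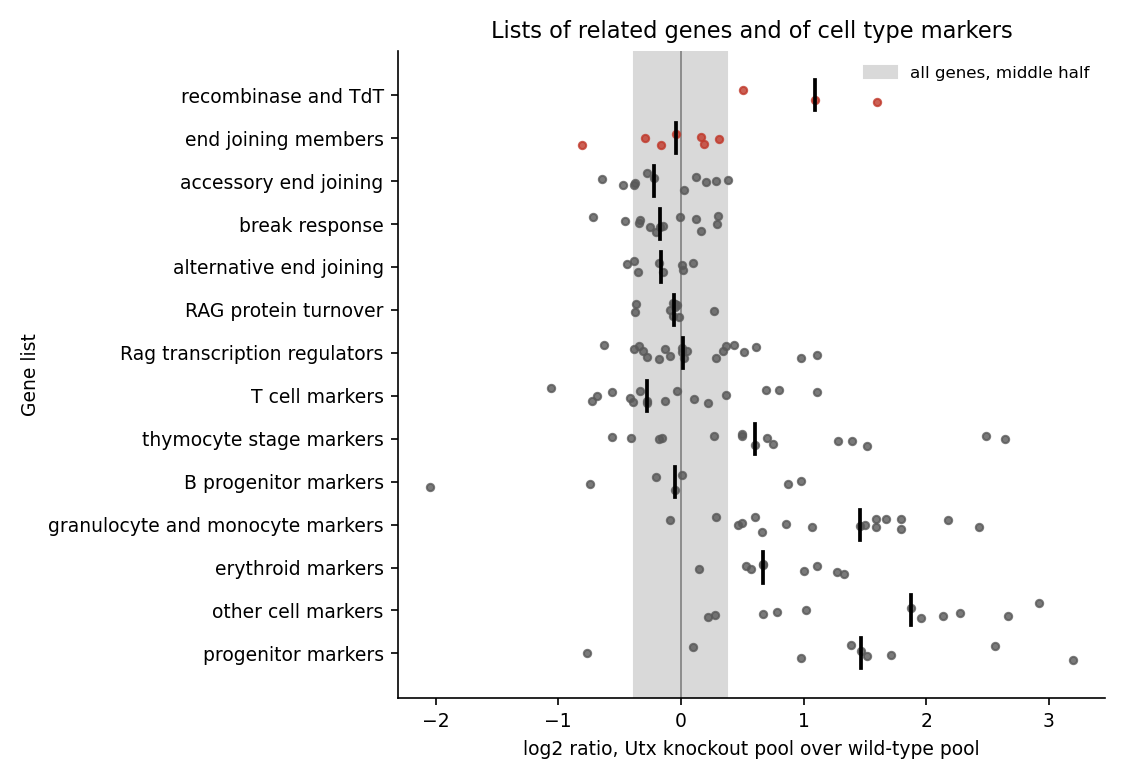
Log2 ratios, knockout pool over wild-type pool, of the members (red) and of lists of related genes and cell type markers (grey), 1 point per gene with at least 100 counts; vertical bars are medians and the grey band spans the 25th to 75th percentile of all genes. The medians lie at 1.09 for Rag1, Rag2 and Dntt, -0.04 for the end joining members and -0.28 for T cell markers.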

How the data were processed

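Poly(A) RNA of leukaemia cells was sequenced with strand-marked libraries and single reads of 50 bases per the protocols in the labels; the design text also allows ribosomal RNA depletion. CASAVA, TopHat and build mm9 are named in the submitters' processing notes; no source used here gives versions, the annotation, the counting tool or its strand setting. The authors deposited 1 DEGseq table, in which 2 columns, per the file headers and values, hold read counts, each pooled by genotype; which samples entered a pool is not given. The first count column was read as the knockout pool from the order of genotypes in the table's title, and Kdm6a was checked. The authors' normalized log2 fold change served only for the 2-fold minimum in the alternative with their q. Their z score was not used further, and the p-values and q-values deposited by the authors are quoted as theirs. Columns with per-sample values numbered 0.

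From the deposited counts, CPM, log2 ratios (pseudocount 0.5) and exact intervals were computed over all rows with Python 3.11.15, numpy 2.4.6 and scipy 1.17.1; TMM factors came from edgeR 4.0.16 (R 4.3.3). Reads are not independent molecules, so intervals cover counting error at most; their widths follow the counts given beside each value. Calls were tested on simulated Poisson counts with known changes in 200 genes. These counts held no spread between tumours, so that test covers counting error only. Lists were matched through GENCODE M21 and RefSeq synonyms; all but Ahsp matched. Promoter windows are RefSeq's (GRCm38.p6). Named were all 10 members, Kdm6a, and from each list called genes and up to the highest and lowest 2; further list genes were named for their role after their values were seen. The homologous recombination list and 1 accessory end joining gene are not reported here. The members and lists were chosen with earlier results of these data known. Alternatives were 5 other scalings, a pseudocount of 5, count minimums of 20 and 500, a 1.5-fold minimum, the authors' q and the mean in place of the median.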

Additional observations from a re-analysis of the deposited data

How the results depend on the processing

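No paired analysis was possible because the counts are pooled by genotype, and for the same reason no replicate could be left out. Rag1 and Rag2 were the 2 members called higher under each of the 10 alternatives run for calls. No member was called lower, except that Xrcc6 became 1 call with a 1.5-fold minimum. All 60 member ratios under the 5 other scalings and the pseudocount of 5 kept their side of the call; Rag1 ranged from 1.60 to 1.88, Rag2 from 1.08 to 1.37 and Xrcc6 from -0.80 to -0.52. Setting the T cell marker median to 0 moved every ratio up by 0.28, so that the median of all genes was 0.21; the median of Rag1, Rag2 and Dntt was then 1.37 and that of the end joining genes 0.24. The end joining group has no fixed sign: its median was 0.038 with TMM, 0.025 with the median of ratios and 0.049 with depths that leave out mitochondrial and erythroid genes, and its mean was -0.092.

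Over all genes, calls higher numbered 2330 with a minimum of 20 counts, 840 with 500 and 2617 with a 1.5-fold minimum. Calls lower numbered 1495, 372 and 2037 under the same settings, and 477 with the T cell marker median at 0. The count and fold minimums change which genes are admitted, while the T cell marker setting moves every ratio up by 0.28. Added after seeing the annotation, the summed counts of Rag1 and Rag2 gave a log2 ratio of 1.57, and 1.51 with Iftap included. Most of the summed counts are those of Rag1, so these values say little about Rag2. Depth limits Nhej1 most, at 173 against 197 counts.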

Other observations

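An alternative repair route and the turnover of the RAG proteins were measured in the same pools. Of 8 alternative end joining genes none was called, with a median log2 ratio of -0.16. The flap nuclease gene Fen1 was lowest at -0.44 (-0.47 to -0.41) and the ligase gene Lig3 highest at 0.10 (0.03 to 0.17); Polq, the polymerase that joins ends by short homology, had 1113 counts in knockout tumours and 1117 in wild-type tumours. The background of calls in either direction was 16.6%.

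Of 10 genes for the breakdown of RAG proteins none was called, with a median of -0.06 and 9 ratios below 0. The lowest were Cks1b at -0.38 (-0.42 to -0.33) and Cul1 at -0.37 (-0.40 to -0.34), both known to act with Skp2. Skp2, the ubiquitin ligase subunit that targets RAG2 outside the G1 phase, had 2030 counts in knockout tumours and 2155 in wild-type tumours, which gave a log2 ratio of -0.07 (-0.15 to 0.02). Vprbp, the ligase adaptor known to bind RAG1, was at -0.05, its partner Ddb1 at -0.05 and Cul4a at 0.27 (0.23 to 0.32). Protein levels were not measured.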
